A study of Mus musculus with 6 samples.

Results

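Levels of 9 genes of the B-cell antigen receptor and of the first steps of its signal were measured in mouse leukaemias, labelled as B-cell leukaemias, with and without Cdh1. The genes were Cd79a, Cd79b, Cd22, Ms4a1, Blnk, Syk, Btk, Blk and Plcg2, and all 9 of 9 were measured, among 18193 genes in all. They were chosen by name, with earlier results of these data known. Each was read from the probe set (a group of short probes for 1 transcript) that the platform annotation gave to that symbol alone and that had the highest mean over the arrays. Values are log2 levels, on which a difference of 1 is a doubling.

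The study set 3 Cdh1-intact leukaemias against 3 Cdh1-deficient ones, with 1 array per mouse, on a C57BL/6 background. The name Cdh1 stands here for the activator of the anaphase-promoting complex that Fzr1 encodes, and not for E-cadherin. Per the series design, all donors carried the floxed gene-trap allele of Cdh1 on both copies, either without or with Mx1-Cre. All of them were given pIpC, which switches this Cre on, from 7 to 8 weeks of age. Mx1-Cre answers to interferon and is not limited to B cells. Marrow was taken 4 weeks after the last pIpC dose and 2 days after 150 mg/kg of 5-fluorouracil. N-myc was carried by the retroviral vector pMXs-IG, and GFP-positive cells were sorted from the marrow of each moribund mouse. The question was how leukaemia cells differed in expression without Cdh1.

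The B-cell receptor is a membrane immunoglobulin joined to a signalling pair, CD79A and CD79B, whose tails hold tyrosine motifs. SRC-family kinases such as BLK phosphorylate those motifs, and the kinase SYK docks on them. SYK phosphorylates the adaptor BLNK, which brings the kinase BTK to phospholipase C gamma 2, the product of Plcg2, and so starts the calcium and diacylglycerol signals. CD22 is a sialic-acid binding coreceptor that restrains the signal, and MS4A1 (CD20) is a B-cell surface protein. Precursor B cells use the same pair and kinases in the pre-B-cell receptor, which tests a new heavy chain.

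The array labelled Cdh1-intact 2 stood apart from the other 5 and went against its B-cell label, with high T-lineage and some low B-lineage transcripts. Whether its sorted cells or its tumour differed was not tested. Differences between the groups are given with and without it. On it the 10 T-cell marker genes had a mean level of 10.58, against 4.96 and 6.92 on Cdh1-intact arrays 1 and 3 and 4.92 to 5.24 in Cdh1-deficient mice. The B-lineage transcription factor gene Pax5 lay at 5.06 there and at 6.44 to 7.49 elsewhere, and Ebf1 at 4.65 and at 7.47 to 9.54 elsewhere. Of 7 measured B-lineage markers outside the 9 receptor genes, only these 2 lay at least 1 below every other array, where 3% of all genes did. Igll1, Rag1 and Rag2 were not lowest there. Mycn, which encodes N-myc, was at 13.13 on this array and at 13.41 to 13.70 on the others. Fzr1 lay at 8.92, 8.04 and 8.92 in Cdh1-intact mice and 8.10, 7.73 and 8.22 in Cdh1-deficient mice, so the groups overlapped at Cdh1-intact array 2. In bulk RNA, fewer cells of a type and less RNA per cell cannot be told apart.

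All 9 receptor genes had their lowest level on Cdh1-intact array 2, as did 24% of all genes, and on the other 5 arrays all 9 lay at 7.15 or above. On that array 9 of 9 lay at least 1 below every other array, where 3% of all genes did. With a gap of at least 4 the count was 5 of 9, against 0.324% of all genes. The gap to the next lowest array ran from 1.75 for Blk to 7.25 for Cd79b. None of the 9 was lowest on any other array. Averaged over the genes after centring each on its own mean, the level was -3.93 on Cdh1-intact array 2, 0.73 and 1.01 on Cdh1-intact arrays 1 and 3, and 0.58 to 0.90 in Cdh1-deficient mice. The plot of levels by gene and array shows this split.

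**Figure D1:**
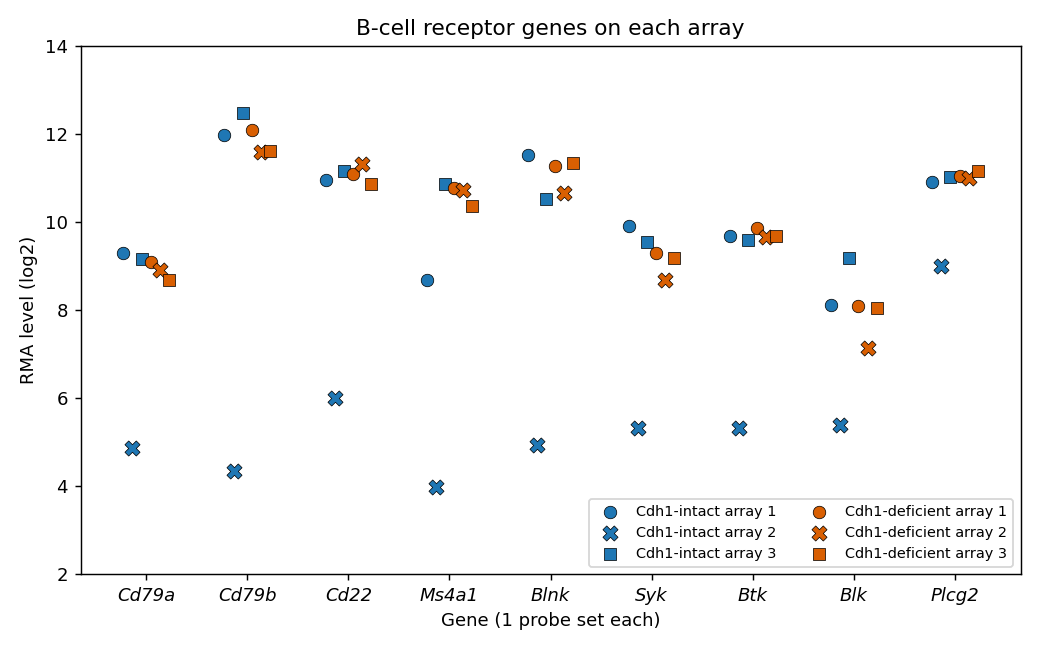
RMA level (log2, vertical axis) of the 9 receptor genes on each of the 6 arrays, with Cdh1-intact arrays in blue and Cdh1-deficient arrays in orange; each point is 1 array. The blue cross, Cdh1-intact array 2, is the lowest point of every gene, from 3.97 for Ms4a1 to 8.995 for Plcg2.

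The promoter windows of the 9 genes were searched for motifs of transcription factors and for the TATA box. Whether these motifs bear on the low levels on Cdh1-intact array 2 was not tested. RefSeq windows (GRCm38.p6, 250 bases before to 50 after a start site) were at hand for 6 of the 9 genes, Cd79a, Cd22, Blnk, Btk, Syk and Plcg2, with 7 windows in all because Syk has 2. The motifs, sought on both strands, were the EBF motif TCCCNNGGG, the octamer ATGCAAAT, the PU.1 core GAGGAA, the E2A box CAGGTG and the TATA box TATAAA. The only overlapping matches were the EBF matches on the 2 strands of Cd22. The windows of 4 genes are shown because together they hold every kind of match found, with matches in capitals. They lie at chr7:24897247-24897546 (plus strand) for Cd79a, chr7:30878979-30879278 (minus) for Cd22, chr19:40994172-40994471 (minus) for Blnk and chrX:134583091-134583390 (minus) for Btk.
Cd79a: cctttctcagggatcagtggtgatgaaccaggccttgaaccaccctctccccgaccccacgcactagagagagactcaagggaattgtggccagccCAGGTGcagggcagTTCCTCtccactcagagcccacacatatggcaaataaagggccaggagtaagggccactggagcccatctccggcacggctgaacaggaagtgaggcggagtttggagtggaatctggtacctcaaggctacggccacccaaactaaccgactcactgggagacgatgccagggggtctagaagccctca
Cd22: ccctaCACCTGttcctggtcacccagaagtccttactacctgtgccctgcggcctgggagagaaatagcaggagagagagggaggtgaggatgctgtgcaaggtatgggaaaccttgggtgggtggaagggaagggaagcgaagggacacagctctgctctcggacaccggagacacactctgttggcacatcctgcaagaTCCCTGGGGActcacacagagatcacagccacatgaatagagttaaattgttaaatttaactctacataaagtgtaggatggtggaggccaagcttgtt
Blnk: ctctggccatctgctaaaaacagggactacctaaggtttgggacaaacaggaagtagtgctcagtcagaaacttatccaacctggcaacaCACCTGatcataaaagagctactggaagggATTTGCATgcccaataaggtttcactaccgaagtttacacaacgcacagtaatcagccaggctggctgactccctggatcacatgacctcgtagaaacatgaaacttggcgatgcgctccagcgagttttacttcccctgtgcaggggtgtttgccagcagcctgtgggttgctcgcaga
Btk: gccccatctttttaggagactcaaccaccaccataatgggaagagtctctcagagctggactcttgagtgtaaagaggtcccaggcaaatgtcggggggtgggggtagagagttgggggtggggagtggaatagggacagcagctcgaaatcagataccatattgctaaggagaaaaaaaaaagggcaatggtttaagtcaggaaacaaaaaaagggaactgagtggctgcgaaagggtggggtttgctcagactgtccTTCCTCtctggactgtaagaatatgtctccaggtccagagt
The EBF motif was found in Cd22 (TCCCTGGGGA) and in 6.56% of all 32851 windows, and the octamer in Blnk, as its reverse complement ATTTGCAT, and in 1.74%. The PU.1 core was in Cd79a, Btk and 1 window of Syk, and in 28.3% of all windows. The E2A box was in 6 of the 7 windows, that of Btk being the exception, and in 20.2% of all windows. The TATA box was in 0 of the 7 windows and in 13.6% of all windows. These matches are letters in a window and not measured binding sites.

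Cd79a and Cd79b encode the signalling pair of the receptor. Cd79b lay at 11.99, 4.35 and 12.47 in Cdh1-intact mice 1, 2 and 3 and 12.09, 11.60 and 11.61 in Cdh1-deficient mice. The low array lay 7.25 below the next lowest, the widest gap of the 9, with its own value close to the lower quartile of all probe sets. Cd79a lay at 9.29, 4.86 and 9.16 in Cdh1-intact mice and 9.10, 8.91 and 8.68 in Cdh1-deficient mice. Its gap of 3.82 was smaller than that of Cd79b. On the 5 other arrays Cd79a spanned only 0.62 and Cd79b 0.87. All 3 Cdh1-deficient arrays lay below Cdh1-intact arrays 1 and 3 for Cd79a, while Cd79b overlapped through Cdh1-deficient array 1.

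Cd22 and Ms4a1 encode surface proteins of B cells. Cd22 lay at 10.95, 6.00 and 11.17 in Cdh1-intact mice and 11.09, 11.32 and 10.87 in Cdh1-deficient mice. A second probe set of Cd22 gave the same order of high and low arrays only in part, with 8.01, 3.76 and 8.34 against 8.45, 8.15 and 7.94. Both put Cdh1-intact array 2 lowest and leave the other 5 arrays close together. Ms4a1 differed in that a further array was low. It lay at 8.68, 3.97 and 10.87 in Cdh1-intact mice and 10.78, 10.73 and 10.36 in Cdh1-deficient mice. Its second probe set gave 7.14, 2.78 and 9.63 against 9.56, 9.88 and 9.34. By both probe sets Cdh1-intact array 1 was the second lowest and at least 1.68 below the next array, and Ms4a1 had the widest range over the 5 other arrays (2.19) of the 9 genes.

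Syk encodes the kinase that docks on the phosphorylated pair. It lay at 9.92, 5.33 and 9.56 in Cdh1-intact mice and 9.30, 8.68 and 9.19 in Cdh1-deficient mice. Leaving array 2 aside, all 3 Cdh1-deficient values lay below both Cdh1-intact values. Syk had 3 further probe sets. One of them also separated these arrays, at 7.92 and 7.04 against 6.92, 5.95 and 6.60. The other two overlapped, at 9.87 and 9.32 against 9.16, 8.46 and 9.47, and at 6.61 and 5.50 against 5.07, 5.89 and 5.68. All 4 probe sets were lowest on Cdh1-intact array 2.

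Blk, a SRC-family kinase of the B lineage, lay at 8.12, 5.40 and 9.18 in Cdh1-intact mice and 8.08, 7.15 and 8.04 in Cdh1-deficient mice. It was highest on Cdh1-intact array 3, 1.06 above the next array, and was the only one of the 9 genes to lie at least 1 above every other array on any array. Btk, an X-linked kinase whose loss impairs B-cell development, was among the most even. It lay at 9.69, 5.32 and 9.59 in Cdh1-intact mice and 9.86, 9.67 and 9.69 in Cdh1-deficient mice, a span of 0.27 outside array 2. Xist, a transcript of the inactive X chromosome, was at 6.75 in Cdh1-intact mouse 1 and at 12.58 to 13.17 on the other arrays, and Btk on array 1 was within the range of the rest. The Y-linked gene Eif2s3y was at 9.60 in Cdh1-intact mouse 1 and at 2.68 to 3.22 on the other arrays. No fit between the groups, with or without Cdh1-intact array 2, had a term for sex.

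Blnk, the adaptor, lay at 11.52, 4.94 and 10.52 in Cdh1-intact mice and 11.28, 10.67 and 11.34 in Cdh1-deficient mice. Its gap of 5.59 was the second largest of the 9. Plcg2, the phospholipase, had the smallest distance of array 2 to the median of the other arrays (2.03). It lay at 10.90, 8.995 and 11.03 in Cdh1-intact mice and 11.04, 11.00 and 11.16 in Cdh1-deficient mice. Its 5 other arrays spanned 0.25, the narrowest of the 9, and on array 2 it kept a level well above the lower quartile of all probe sets (3.75 to 3.83 over the arrays). Cd79b and Ms4a1 on array 2 lay close to that quartile. Cd79a (4.86) and Blnk (4.94) lay below the median of all probe sets on that array (5.10). No detection call was used, so whether these or others of the 9 genes were above background there is not known.

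Between the groups no receptor gene passed the limma test, and the direction of 4 of them depended on array 2. With all 6 arrays, 0 of 9 had an adjusted p under 0.05, as did 0% of all 18193 genes, and 0 of 9 had an unadjusted p under 0.05, against 5.5% of all genes. All 9 had a higher mean in Cdh1-deficient cells, with differences from 0.19 (Blk) to 2.78 (Ms4a1) and a median of 1.54, against 0.0034 over all genes. Cd79b went from 9.60 ± 4.56 to 11.77 ± 0.28 (SD, n = 3 each), a difference of 2.16 with a limma 95% interval of -3.15 to 7.48 and adjusted p = 0.863. Blk differed by 0.19 (-2.18 to 2.55) and Plcg2, with the smallest SE, by 0.76 (-0.59 to 2.11). The groups overlapped for all 9 genes, as they did for all but 11.7% of the 18193. A permutation of 3 against 3 arrays cannot give a two-sided p below 0.1, so none was used.

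Without Cdh1-intact array 2 the median difference of the 9 genes was 0.04, and 5 were higher and 4 lower in Cdh1-deficient cells. In that fit the median SE of the 9 was 0.23 in place of 1.22, while the median SE over all genes went from 0.157 to 0.160. Syk differed by -0.68 (95% interval -1.26 to -0.10), with an unadjusted p of 0.0285 in limma and adjusted p = 0.801, so it did not pass. Averaging its 4 probe sets gave -0.69 (-1.34 to -0.03). It was the only 1 of the 9 with an unadjusted p under 0.05 in this fit, against 6.17% of all genes. Blk differed by -0.90 (-1.96 to 0.16), Cd79b by -0.46 (-1.04 to 0.11) and Cd79a by -0.33 (-0.74 to 0.07).

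The remaining 5 genes kept a positive sign without that array. Btk differed by 0.10 (95% interval -0.21 to 0.41), Plcg2 by 0.10 (-0.20 to 0.40), Cd22 by 0.04 (-0.40 to 0.47) and Blnk by 0.08 (-0.81 to 0.97). Ms4a1 differed by 0.85 (-0.71 to 2.40), with its low value on Cdh1-intact array 1. All 3 Cdh1-deficient arrays lay below both remaining Cdh1-intact arrays for 3 of the 9 genes, Cd79a, Syk and Blk, where 10.2% of all genes did, and above both for 0 of 9, where 11.2% did. These intervals exclude a change of 1 in either direction for Cd79a, Cd22, Blnk, Btk and Plcg2, but not for Cd79b, Ms4a1, Syk and Blk.

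**Figure D2:**
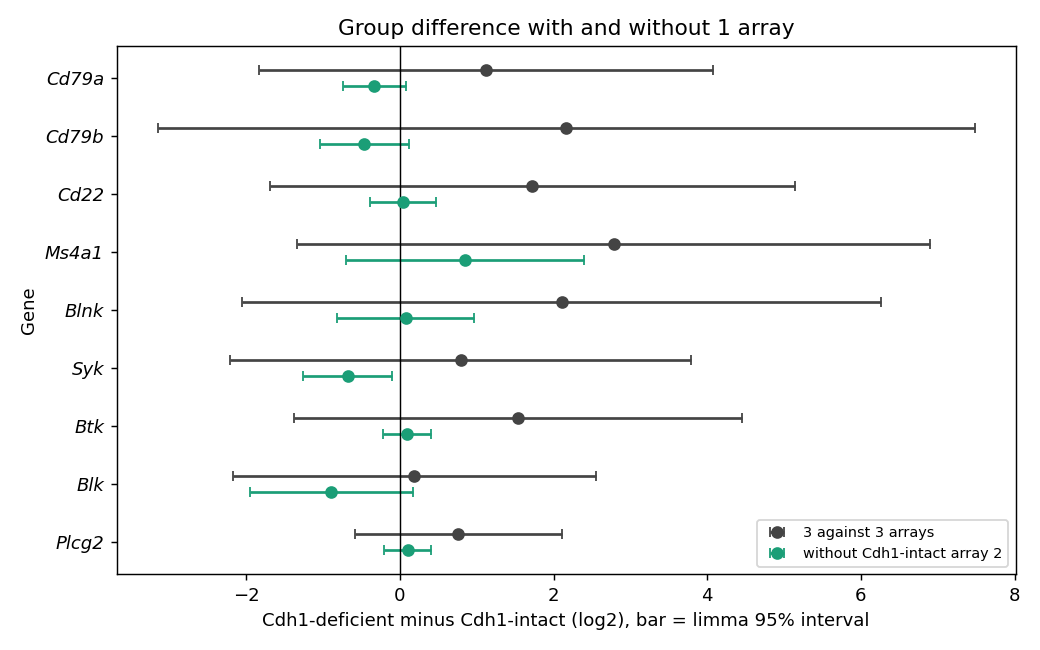
Difference between the group means (Cdh1-deficient minus Cdh1-intact, log2, horizontal axis) for each of the 9 genes, with limma 95% intervals, from all 6 arrays (grey) and without Cdh1-intact array 2 (green). The grey intervals all span 0; Cd79a, Cd79b, Syk and Blk lie right of 0 in grey and left of it in green.

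The rest of the receptor pathway was mixed on array 2. In 4 lists of other receptor pathway genes 41 of 51 were measured. On Cdh1-intact array 2, 6 of the 41 lay at least 1 below every other array, where 3% of all genes did, 4 at least 1 above, where 2.82% did, and 31 did neither. In limma 0 of the 41 passed with or without that array, and 2 and 4 had an unadjusted p under 0.05, against 5.5% and 6.17% of all genes. The 2 were Pecam1 and Map3k7, and the 4 were Dapp1, Sh3bp2, Map3k7 and Nfatc1.

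Among the receptor chains, Ighm, the heavy chain constant region of IgM, lay at 12.86, 11.23 and 12.82 in Cdh1-intact mice and 12.52, 13.51 and 13.00 in Cdh1-deficient mice, so array 2 was lowest but not near the floor. Of the surrogate light chain genes, which serve the pre-B-cell receptor, Igll1 lay between 6.53 and 7.12 on all 6 arrays. Vpreb1 ran from 4.31 on Cdh1-intact array 2 to 6.45 on array 3.

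Of 10 coreceptor and inhibitor genes, 2 were at least 1 below on array 2, against 3% of all genes. Fcgr2b, the inhibitory IgG receptor of B cells, lay at 12.01, 3.89 and 10.72 in Cdh1-intact mice and 11.04, 11.23 and 11.38 in Cdh1-deficient mice. Siglecg, a sialic-acid binding inhibitor like Cd22, lay at 5.06 on array 2 and at 9.20 to 9.79 elsewhere. Cd5, an inhibitory receptor of T cells and some B cells, went the other way, at 11.23 on array 2 and 3.68 to 4.22 elsewhere. Pecam1, which also carries inhibitory motifs, had the smallest p of this list, with a difference of -1.17 (SE 0.40; limma adjusted p = 0.849), or -0.85 without array 2.

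Of 18 other kinases and adaptors, 2 were at least 1 below and 3 at least 1 above on array 2, against 3% and 2.82% of all genes. The adaptor Bank1 lay at 4.53 there and at 10.02 to 10.70 elsewhere, and the phosphoinositide 3-kinase adaptor Pik3ap1 at 5.23 and at 6.88 to 7.22 elsewhere. The kinase Fyn lay at 9.85 there and at 6.95 to 8.04 elsewhere, and the exchange factor Vav3 and the ubiquitin ligase Cbl were the other two that were higher. The 3 of smallest p were Dapp1, an adaptor that binds phosphoinositides, at 0.65 (SE 0.29), Pik3r1, a regulatory subunit of phosphoinositide 3-kinase, at -0.41 (SE 0.19), and the Ras exchange factor Sos1 at 0.83 (SE 0.38), all with limma adjusted p = 0.849. Without array 2 they differed by 0.91, -0.50 and 0.88.

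Of 10 genes downstream of Plcg2, 1 was at least 1 below on array 2, against 3% of all genes. That gene was Ppp3ca, a calcineurin subunit, at 8.00 there and at 9.73 to 10.42 elsewhere. Map3k7, a kinase on the way to NF-kappaB, differed by 0.64 (SE 0.23; limma adjusted p = 0.849) and Bcl10, a scaffold of the same branch, by -0.16 (SE 0.10; adjusted p = 0.849). Without array 2 these differences were 0.42 and -0.11. Nfatc1, a transcription factor that calcineurin activates, had the smallest unadjusted p of this list without array 2 and is named after its values were seen. It differed by 0.61 (SE 0.12; limma unadjusted p = 0.0025, adjusted p = 0.801) there, and by 0.23 (SE 0.33) with all arrays.

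**Figure D3:**
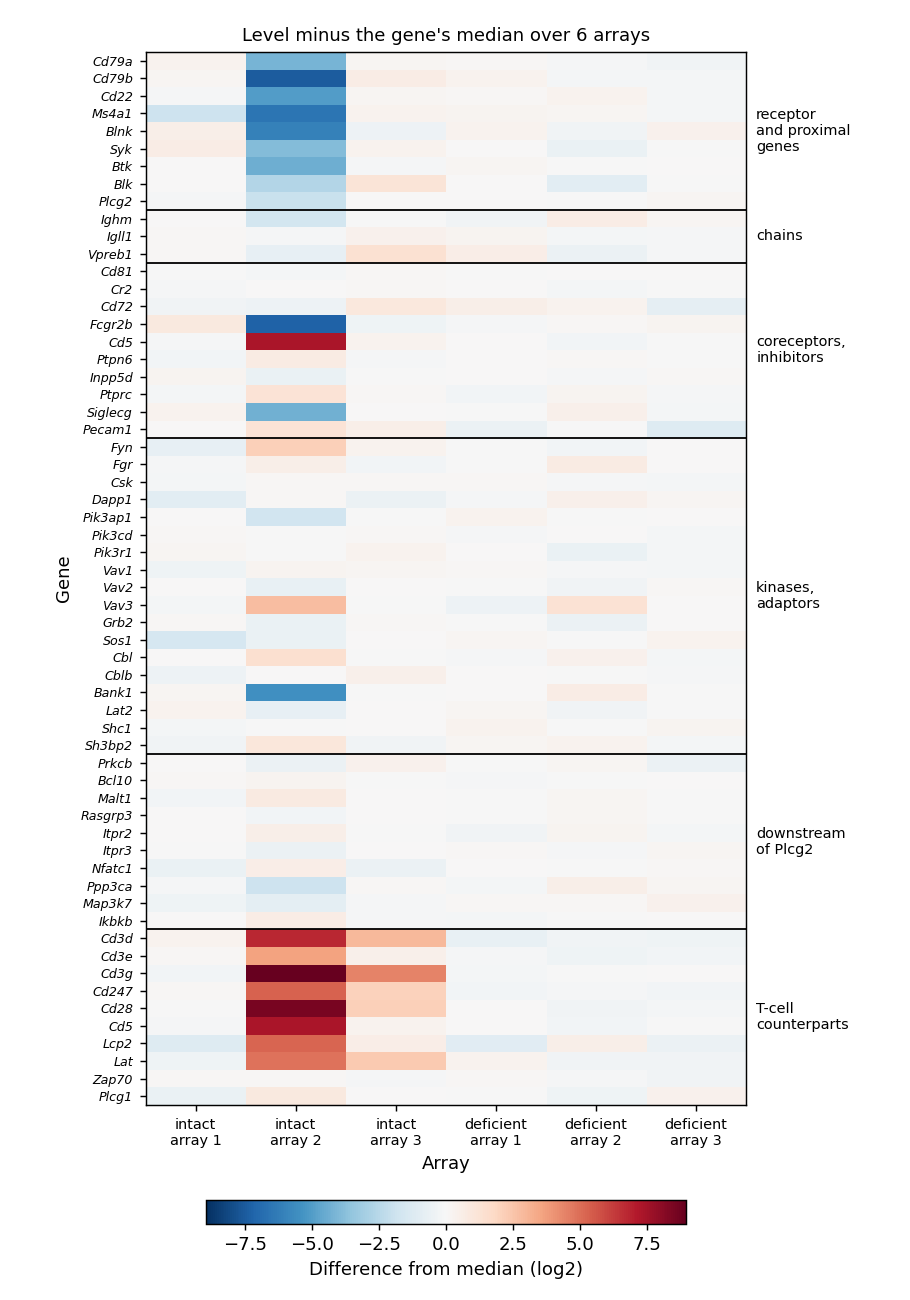
Level minus the gene's own median over the 6 arrays (log2, colour) for the 9 receptor genes, 41 other pathway genes and 10 T-cell counterparts (rows; Cd5 is in both of its lists) on each array (columns). The second column, Cdh1-intact array 2, is blue for all 9 receptor genes and mixed below them, with Cd3g 8.98 above its median.

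The T-cell receptor uses parallel parts: CD3 chains in place of CD79, ZAP70 in place of SYK, LCP2 (SLP-76) in place of BLNK, and phospholipase C gamma 1. Of 10 measured T-cell counterparts, 8 lay at least 1 above every other array on Cdh1-intact array 2, where 2.82% of all genes did. Lcp2 lay at 4.41, 10.74 and 6.14 in Cdh1-intact mice and 4.53, 6.05 and 5.03 in Cdh1-deficient mice, so that array 2 was 5.71 above the median of the others, while Blnk was 6.34 below. Cd3g lay at 12.48 on array 2, and at 7.95 in Cdh1-intact mouse 3, with 3.25 to 3.52 in the remaining 4 mice. Cd3e lay at 9.63 on array 2 and at 5.65 to 6.48 elsewhere. On Cdh1-intact array 3, Cd3g and Lat (8.63) were second highest, and the mean centred level of the 9 receptor genes was 1.01. On Cdh1-intact array 1, where Cd3g lay at 3.25 and Lat at 5.90, that mean was 0.73. A relation between these T-cell transcripts and the receptor genes was not tested.

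The phospholipases also went opposite ways on array 2, by smaller amounts. Plcg1 lay at 9.07 on array 2 and at 7.58 to 8.53 elsewhere, 0.95 above the median of the others, where Plcg2 was 2.03 below. Zap70 was the exception. Its probe set lay at 8.20 on array 2, within the 7.79 to 8.26 of the other arrays, while Syk was 3.97 below. In limma 0 of the 10 counterparts passed between the groups (median difference -2.48, or -0.80 without array 2), and 1 and 2 had an unadjusted p under 0.05, against 5.5% and 6.17% of all genes.

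The nearest measured neighbours on the chromosome were compared on array 2. Of 18 nearest measured genes, taken on each side of the 9 genes in the RefSeq gene order, 1 lay at least 1 below every other array, where 3% of all genes did, and 7 were lowest there, where 24% were. For 6 of the 18 some other array was already less than 1 above the lower quartile of all probe sets, so a lower level could hardly show. Of the remaining 12, 5 were lowest on array 2 and 1 was at least 1 below. That gene was Diras2, a small GTPase gene beside Syk on chromosome 13. It lay at 9.46, 3.58 and 9.11 in Cdh1-intact mice and 8.50, 7.28 and 8.41 in Cdh1-deficient mice. Diras2 and Syk put the 6 arrays in the same order. The gene on the other side of Syk, Auh, lay at 8.08 on array 2 and at 7.79 to 8.87 elsewhere. Rps19 and Arhgef1, beside Cd79a, lay at 13.58 and 9.41 on array 2, within 0.54 of the median of their other arrays.

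**Figure D4:**
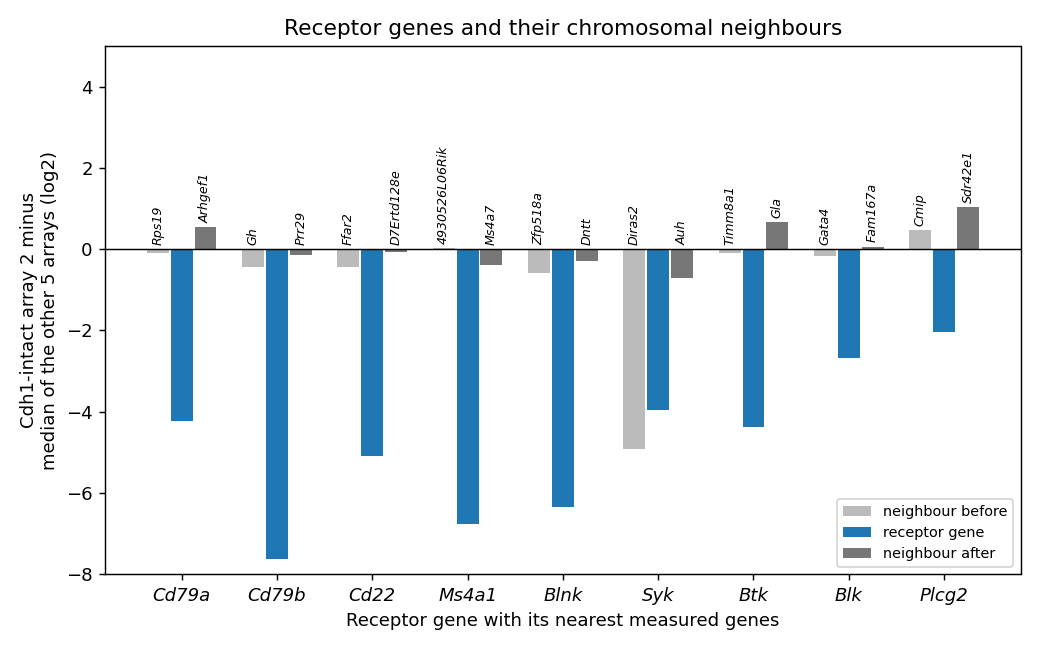
Level on Cdh1-intact array 2 minus the median of the other 5 arrays (log2, vertical axis) for each receptor gene (blue) and its nearest measured gene before (light grey) and after (dark grey) it on the chromosome. Receptor genes run from -7.64 (Cd79b) to -2.03 (Plcg2); Diras2 at -4.91 is the one neighbour in that range.

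Markers of other cell types also differed on array 2, some lists being higher and some lower. Of 10 T-cell markers 9 were at least 1 above every other array there, and of 7 NK and cytotoxic markers 3 were, against 2.82% of all genes. The T-cell markers Cd3d, Cd3e, Cd3g, Cd247, Cd28 and Cd5 are also T-cell counterparts, so those counts share genes. Among the NK and cytotoxic markers, Gzma lay at 12.39 against 4.16 to 8.33 elsewhere, while the NK receptor gene Ncr1 lay at 4.02 to 4.26 on all 6 arrays. Of 8 neutrophil markers 7 were at least 1 below, against 3% of all genes. The neutrophil list mean was 6.24 on array 2, 10.40 and 9.45 on Cdh1-intact arrays 1 and 3 and 9.52 to 11.47 in Cdh1-deficient mice. The neutrophil list was thus higher on the same 5 arrays as the receptor genes. Macrophage list means were 4.87 on array 2 and 5.37 to 6.77 elsewhere. Erythroid means were 6.11 on array 2 and 5.94 to 7.61 elsewhere, and plasma cell means 5.60 and 6.85 to 7.20. Of 6 plasma cell genes 2, Irf4 and Slamf7, were at least 1 below every other array on array 2, as were 3% of all genes. The other plasma cell genes were not lowest there. Of 8 macrophage genes 1, Cd68, was at least 1 below, against the same 3%. The part of these cell types in the receptor gene values was not tested.

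The B-lineage label was met in part by its markers. Of 9 measured B-lineage markers, 4 (Pax5, Ebf1, Cd79a and Cd79b) were at least 1 below on array 2, against 3% of all genes. Cd79a and Cd79b are themselves receptor genes of the 9, and without them 2 of 7 were. Rag1, Rag2 and Dntt, genes of antigen receptor rearrangement, lay between 3.01 and 5.36 on all 6 arrays, with the highest value for Rag1 on Cdh1-intact array 3. That array also had the highest Ebf1 (9.54), Vpreb1 and Blk. Means of the 7 were 4.57 on array 2, 5.74 and 6.34 on the other Cdh1-intact arrays and 5.27 to 5.74 in Cdh1-deficient mice.

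**Figure D5:**
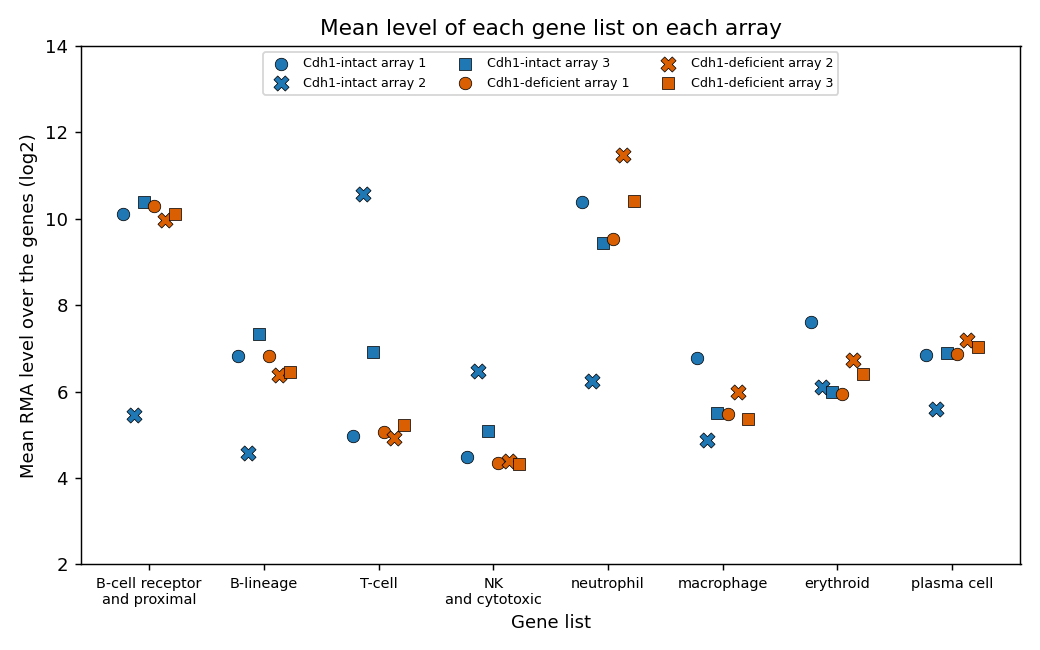
Mean RMA level over the genes of each list (log2, vertical axis) on each array, for the 9 receptor genes and 7 marker lists, coloured and shaped by array as in the legend. Cdh1-intact array 2 (blue cross) is lowest for the receptor genes (5.46) and the B-lineage, neutrophil, macrophage and plasma cell lists and highest for the T-cell list (10.58) and the NK and cytotoxic list.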

How the data were processed

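Gene expression was measured on 6 one-colour Affymetrix arrays. Deposited were log2 values of 45101 probe sets on each array. The authors used RMA (background correction, quantile normalization between arrays, probe set summary), as the submitters' processing notes name it without a version. RMA makes arrays alike in distribution, so a change of total RNA per cell is not visible, and low levels are compressed. Probe sets with exactly 1 symbol in the platform annotation (34945) were kept, 932 with several were not, and each of 18193 genes was read from its probe set of highest mean.

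Groups and replicate numbers came from the sample titles. The comparison used lmFit and eBayes of limma 3.58.1 under R 4.3.3 (two-sided), with Benjamini-Hochberg adjustment over all genes and a threshold of 0.05, and the fit was tested on simulated data. P-values set a group difference against the spread between these arrays, which limma moderates over all genes. The number of arrays limits the precision. The genes and lists were chosen with earlier results of these data known. Named were the 9 genes, the 3 of smallest p in each pathway list, T-cell counterparts, nearest neighbours, the 8 genes of most similar pattern, and genes behind small counts, chosen after their values were seen. Alternatives were other probe set choices, normalizations, level filters, variance models, a replicate block and each array left out. Some genes of the lists are not reported here.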

Additional observations from a re-analysis of the deposited data

How the results depend on the processing

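No gene of the 9 passed under any of the 16 alternatives: 144 values had adjusted p from 0.484 to 0.999 in limma, and the count of all genes passing stayed at 0, with 442 to 1751 genes at an unadjusted p under 0.05. Of the 144 values, 9 changed sign. In the 9 settings that kept all arrays only Blk did, to -0.076 with array weights. Without Cdh1-intact array 2, Cd79a turned to -0.33, Cd79b to -0.46, Syk to -0.68 and Blk to -0.90, and, averaging all probe sets too, a setting chosen after seeing the data, to -0.33, -0.46, -0.69 and -0.90. Leaving out 1 array at a time gave a median difference of the 9 genes from 0.04 to 2.28, ranges of -0.33 to 1.88 for Cd79a, -0.46 to 3.60 for Cd79b, -0.68 to 1.61 for Syk and -0.90 to 1.00 for Blk, and 0 to 1 of the 9 at an unadjusted p under 0.05. That gene was Syk without Cdh1-intact array 2 (1 also with the mean of probe sets) and Ms4a1 without Cdh1-intact array 3 (4.30, adjusted p = 0.484). Same-numbered arrays of the groups did not deviate together (r = -0.14, 0.01 and 0.04 over genes), with 1 of the 6 arrays correlating best with its own number, and the replicate block called 0 of 9 and 0 of all genes. The number of arrays and the missing detection calls limit the low levels.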

Other observations

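Other genes followed the same pattern over the 6 arrays. Of 4091 genes outside the 9 with a range of at least 1, 473 had a Pearson r of at least 0.9 with the mean centred level of the 9 genes, a measure that Cdh1-intact array 2 alone largely sets. The 8 of highest r (0.997 to 0.9995, over 6 arrays, as a description) were H2-Aa, Lgals1, Tmem243, Pou2af1, Wdfy4, Ly86, Camsap2 and Cd74. Over the other 5 arrays their r was 0.71 to 0.98, and that of each of the 9 genes with the mean of the rest of the 9 was -0.45 to 0.87. These ranges cannot be compared. The 8 genes were picked by an r that includes those 5 arrays, and the 9 genes were set against another mean. H2-Aa and Cd74, an MHC class II chain and the invariant chain that escorts class II, lay at 5.19 and 5.86 on that array, and at 10.85 to 11.62 and 10.14 to 10.96 elsewhere. Pou2af1, the B-cell coactivator of octamer-binding factors, lay at 6.26 there and at 11.81 to 12.19 elsewhere. Lgals1, which encodes galectin-1, lay at 7.99 and at 12.92 to 13.47 elsewhere.

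Cdh1-intact array 1, the array with the lower Ms4a1 value, carried the highest levels of the erythroid genes Alas2 (9.31, against 4.82 to 5.61 elsewhere) and Slc4a1 (9.70, against 5.10 to 8.40). The erythroid gene Klf1 was also highest there, but Hba-a1 and Epor were not, and Tfrc was lowest there (11.43, against 11.54 to 11.86 elsewhere). Of the macrophage genes, the complement gene C1qa was highest there (7.63, against 4.50 to 5.33), as were C1qb, Csf1r, Adgre1 and Mrc1. Cd68, Cd14 and Ccr2 were not. The part of these transcripts in the Ms4a1 value was not tested.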
